A study of Mus musculus with 9 samples.

Results

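Polycomb repressive complex 1 (PRC1) subunits were followed here in invariant natural killer T (iNKT) cells of the mouse thymus that lack Utx. The genes are Ring1, Rnf2, Bmi1, Pcgf1, Pcgf5, Cbx2, Cbx7, Cbx8 and Phc1. They were taken by name, as every array probe set annotated to exactly 1 gene whose symbol is one of these 9, which gave 20 of the 45101 probe sets on the array, for 9 of 18193 genes. Ring1, Pcgf1 and Phc1 had 1 probe set each, Bmi1, Cbx2 and Cbx8 had 2 each, Pcgf5 and Cbx7 had 3 each, and Rnf2 had 5. RNA of sorted thymic iNKT cells was measured on 9 arrays, 4 from Utx knockout mice (KO1 to KO4) and 5 from Utx wildtype mice (WT1 to WT5), all aged 8 to 12 weeks and described as matched for age and sex. The titles name 3 batches and do not say of what: KO1 and WT1 are batch 1, KO2, KO3, KO4 and WT2 are batch 2, and WT3, WT4 and WT5 are batch 3. The sources used here do not give the strain, the Cre line or other means of deletion, the deleted part of the gene or the gate of the sort. The arrays are described as biological replicates, without saying whether each holds 1 animal or a pool, so p-values measure the spread between these arrays.

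PRC1 is a family of chromatin complexes built on a RING1 or RNF2 enzyme that places ubiquitin on histone H2A. A PCGF protein pairs with that enzyme and sets the type of complex: BMI1 joins CBX and PHC proteins in canonical PRC1, which is drawn to the histone H3 methylation left by PRC2, while PCGF1 and PCGF5 sit in variant complexes that need no CBX protein. UTX, the product of Kdm6a, is a demethylase that removes the PRC2 mark which CBX proteins bind, and Bmi1 is known from mouse knockouts for its role in the expansion of blood stem cells and thymocytes.

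Promoter windows of 3 genes are shown, so that the start regions of subunits with different results below can be set side by side: Phc1 was called higher and Cbx7 lower in Utx knockout cells, and Bmi1 read higher on all knockout arrays without passing the test. They are the 250 bases before the RefSeq gene start in GRCm38.p6, 5′ to 3′ on the gene's strand, with each CpG in capitals. The windows are chr6:122340228-122340477 on the minus strand for Phc1, chr15:79932647-79932896 on the minus strand for Cbx7 and chr2:18676768-18677017 on the plus strand for Bmi1.
Phc1: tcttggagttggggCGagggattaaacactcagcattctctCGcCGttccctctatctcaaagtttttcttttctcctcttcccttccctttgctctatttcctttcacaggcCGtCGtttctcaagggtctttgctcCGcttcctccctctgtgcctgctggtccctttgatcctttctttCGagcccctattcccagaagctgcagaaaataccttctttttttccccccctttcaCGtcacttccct
Cbx7: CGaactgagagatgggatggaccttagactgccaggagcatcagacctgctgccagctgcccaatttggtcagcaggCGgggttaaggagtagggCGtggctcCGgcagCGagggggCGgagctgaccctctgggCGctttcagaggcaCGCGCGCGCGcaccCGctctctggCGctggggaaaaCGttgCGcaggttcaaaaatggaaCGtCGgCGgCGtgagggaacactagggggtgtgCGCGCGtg
Bmi1: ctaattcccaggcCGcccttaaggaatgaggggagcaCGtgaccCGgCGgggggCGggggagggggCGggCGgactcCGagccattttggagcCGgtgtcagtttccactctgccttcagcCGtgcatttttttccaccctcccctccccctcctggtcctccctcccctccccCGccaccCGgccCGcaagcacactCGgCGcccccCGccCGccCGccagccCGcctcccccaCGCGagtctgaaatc
The Phc1 window holds 8 CpG, the Cbx7 window 23 and the Bmi1 window 21, where the median over 32851 RefSeq promoter windows is 6. Windows of uncalled members that are not shown hold 30 (Ring1), 20 (Rnf2), 22 (Cbx8) and 23, 4 and 28 (Pcgf5). Whether the number of CpG goes with the results was not tested. Matches were sought on both strands. The E-box letters CACGTG occur in 6.02% of all windows, the box named after its letters CCAAT in 33.9%, the GC box letters GGGCGG in 32.7%, the Runx letters TGTGGT in 14.0% and the E2F letters TTTCCCGC in 0.895%. No motif contains another. The Phc1 window held none of them, the Cbx7 window held 1 CCAAT match (190 bases before the start) and 1 GC box, and the Bmi1 window held 1 E-box match (215 bases before the start) and 6 GC boxes. Of the 9 genes, 7 matched an entry of the RefSeq promoter table. A match describes letters only.

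The level of a probe set is given as deposited, on the log2 scale of RMA, a method that corrects background, normalizes arrays and summarises the probes of a set. A difference is knockout minus wildtype from limma with batch as a factor, adjusted by Benjamini-Hochberg over 45037 probe sets and called under 0.05. It rests on batches 1 and 2, which hold both genotypes, and the wildtype arrays of batch 3 help to estimate the spread. Array medians lay between 5.97 and 6.09, but interquartile ranges were 3.79 to 4.29 on knockout arrays and 3.44 to 3.84 on wildtype arrays. In RNA of a whole cell sort, fewer cells of a type and less RNA per cell cannot be told apart. The iNKT regulator Zbtb16 and the T cell receptor gene Cd3e were at the 93.8th and 99.5th percentile of all probe sets. The targeted gene, Kdm6a, differed by -0.01 (adjusted p = 0.977), -0.46 (adjusted p = 0.234), 0.52 (adjusted p = 0.129) and -0.23 (adjusted p = 0.673) on its 4 probe sets by limma. The second of these was -0.86 without WT1 or KO1 (limma adjusted p = 0.0413) and 0.15 without WT2 (limma adjusted p = 0.984). Since the deleted part is not given, these values do not check the genotype labels.

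Other RNAs moved with genotype on the same arrays. Over all genes, 4.98% of 18193 were called higher and 2.4% lower. An unadjusted limma p under 0.05 was seen for 28.2% of all probe sets, in either direction. Of 23 cell cycle genes measured, 19 were called higher and 0 lower in knockout cells (21 higher and 0 lower at an unadjusted limma p under 0.05), with summed linear levels of 49806 to 64180 on knockout arrays and 26054 to 30636 on wildtype arrays. Of 11 markers of double-positive thymocytes, 7 were called higher, with summed levels of 36833 to 54371 in knockout and 19150 to 27070 in wildtype cells. Of 13 macrophage and dendritic cell markers, 3 were called higher, with sums of 1668 to 3144 in knockout and 594 to 850 in wildtype cells, and 2 of the 13 had a mean under 4.54 (log2), the 25th percentile over all probe sets. For B cell markers 2 of 7 were called higher, with sums of 1188 to 2438 in knockout and 686 to 1092 in wildtype cells. Of the 6 neutrophil markers (sums of 236 to 1877 in knockout and 169 to 851 in wildtype cells), 0 were called by limma. All 6 had a positive difference, with a median of 0.95. Of the 4 thymic epithelial markers (238 to 261 in knockout and 204 to 272 in wildtype cells), 0 were called, with 3 positive and 1 negative. On lists this short, 0 calls is near the share over all genes. At an unadjusted limma p under 0.05, 1 neutrophil marker and 0 thymic epithelial markers were higher. By the same measure 11 double-positive thymocyte, 8 macrophage and dendritic cell and 4 B cell markers were higher. In each of these lists 0 were lower. Of 11 iNKT and T cell markers, 4 were called lower (Cxcr3, Klrk1, Il2rb and Tbx21), with sums of 41940 to 44962 in knockout and 52848 to 59011 in wildtype cells. Of the 11, 10 had a negative difference. The 1 positive was Thy1, named after its value was seen (0.89, limma adjusted p = 0.0515), with all knockout arrays above all wildtype arrays. Zbtb16 differed by -0.22 (limma adjusted p = 0.536) and Cd3e by -0.003 (limma adjusted p = 0.993). The female-specific RNA Xist read 7.84 to 10.07 in knockout and 4.80 to 6.79 in wildtype cells, and the Y-linked gene Eif2s3y 7.07 to 9.84 in knockout and 10.32 to 13.58 in wildtype cells, so neither overlapped between genotypes although the labels give matched sexes. The part of these RNAs in the values of the PRC1 subunits was not tested, and the differences within batches 1 and 2 stand beside each subunit below. Within batch 1 the difference of Xist was 5.27 and that of Eif2s3y -6.51, and within batch 2 they were 1.54 and -0.53.

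Phc1 and Cbx2 were called higher and Cbx7 lower on the Utx knockout arrays. The calls were kept in 2 (Phc1), 6 (Cbx2) and 1 (Cbx7) of the 9 fits without 1 array. No subunit call remained with array weights, without batch 3 or in batch 2 alone. On the fitted scale Phc1, which carries the SAM domain through which PRC1 complexes join into chains, was 2.82-fold higher, Cbx2 was 2.40-fold higher, and Cbx7 was 1.88-fold lower. Cbx2 and Cbx7 encode alternative chromodomain readers of canonical PRC1, so of the 3 CBX genes 1 was called in each direction and Cbx8 in neither. Of the 20 probe sets, 2 were called higher (10% of them, against 3.73% of all probe sets) and 1 lower (5%, against 2.67%), together 15% against 6.4%. These belong to 3 of the 9 genes, and each is the probe set of highest mean of its gene (33.3% of the 9, against 7.38% of 18193 genes on that probe set). Of the other 17 probe sets, 8 had an unadjusted limma p under 0.05, so that 11 of 20 lay under it (55%, against 28.2% of all probe sets), 5 with a positive and 6 with a negative difference. On 5 probe sets all knockout arrays lay above all wildtype arrays and on another 5 all lay below, together 50% of the 20. Over all probe sets, the shares were 15.7% above, 16.4% below and 32.1% either way. The median difference over the 20 probe sets was 0.01, beside -0.00 over all probe sets, and the median size of the difference without its sign was 0.51, beside 0.32 over all probe sets.

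**Figure D1:**
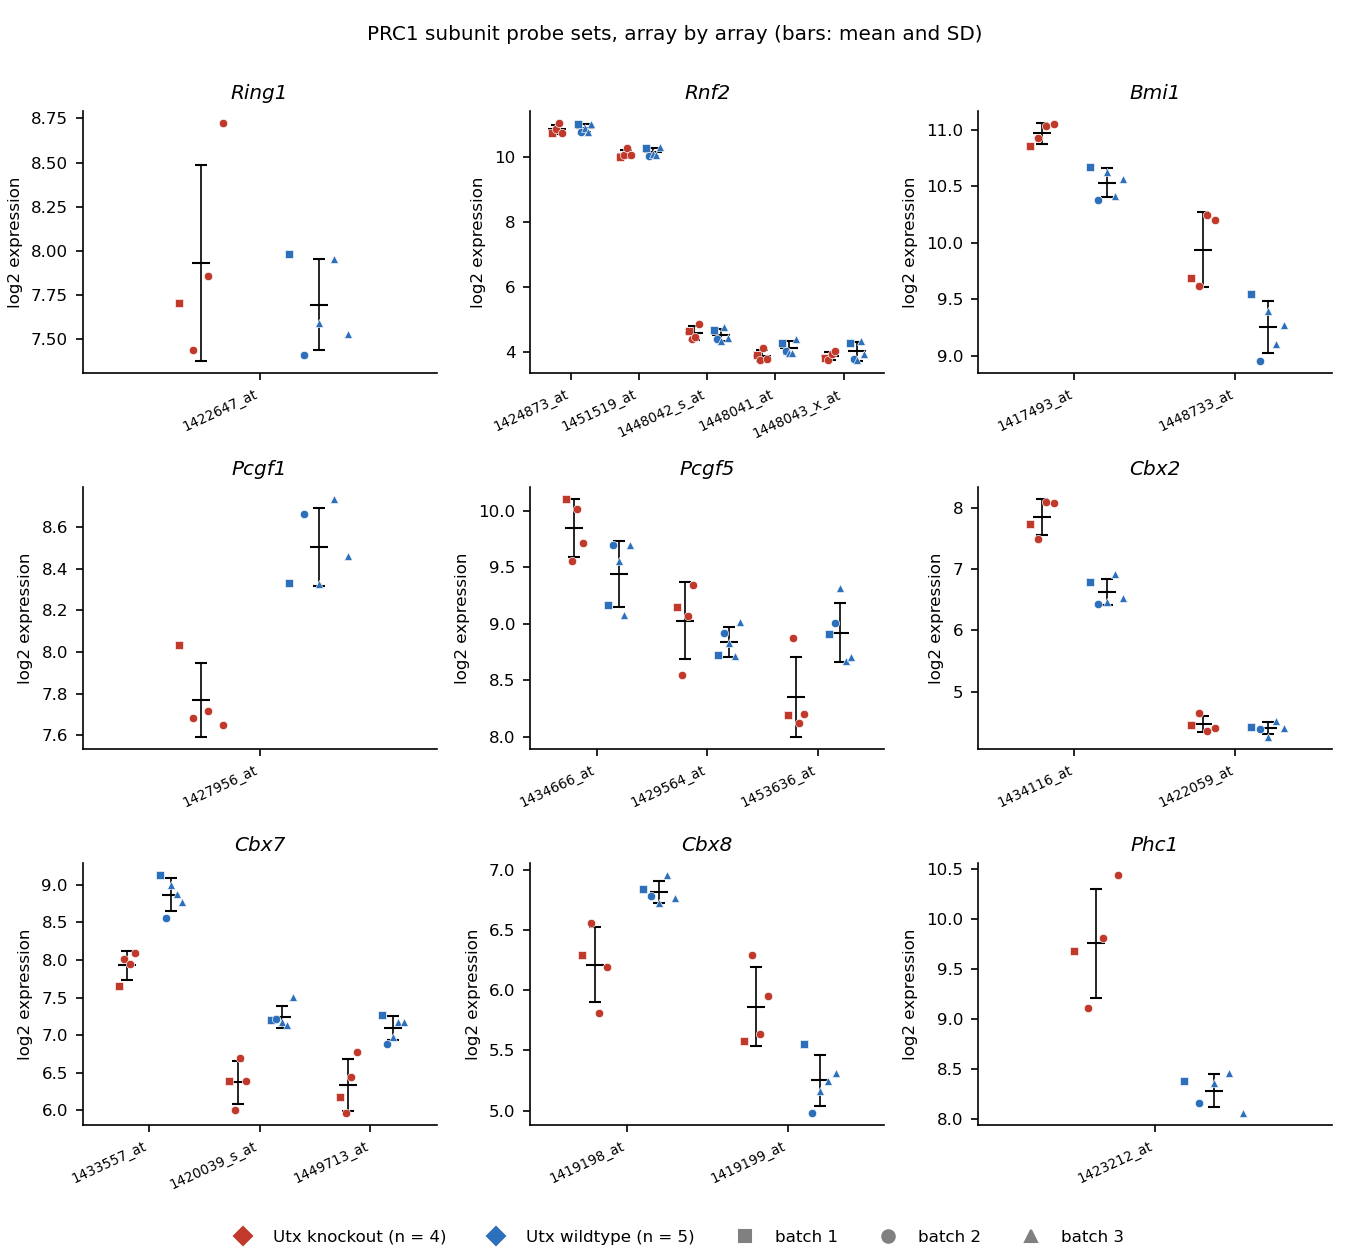
Log2 expression of the 20 PRC1 subunit probe sets on each array, 1 panel a gene, with knockout arrays (red, n = 4) left of wildtype arrays (blue, n = 5), marker shape for batch, and black bars for the mean and SD. Knockout and wildtype points stand fully apart for Bmi1, Pcgf1, Cbx7, Cbx8, Phc1 and the Cbx2 probe set 1434116_at, and mix for Ring1, Rnf2 and Pcgf5; the vertical axes differ between panels and do not start at 0.

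The catalytic subunits showed no difference that passed the test. Ring1 encodes one of the paired H2A ubiquitin ligases. Its probe set 1422647_at read 7.71, 7.44, 7.86 and 8.72 on KO1 to KO4 and 7.98, 7.41, 7.595, 7.96 and 7.53 on WT1 to WT5. KO4 was the highest of the 9 arrays, and the other knockout arrays lay within the wildtype range. The means were 7.93 ± 0.55 (SD, n = 4) in knockout and 7.70 ± 0.26 (n = 5) in wildtype cells, and the fitted difference was 0.25 (95% interval -0.57 to 1.07, limma adjusted p = 0.693). The difference was -0.28 in batch 1 and 0.59 in batch 2, and without WT2 the fit gave -0.28.

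Rnf2 encodes RING1B, the ligase on which most H2A ubiquitination depends in mouse embryonic stem cells. Its probe set of highest mean, 1424873_at, read 10.74, 10.87, 11.035 and 10.74 on KO1 to KO4 and 11.00, 10.75, 10.88, 10.75 and 11.02 on WT1 to WT5. The groups overlapped over nearly their whole range, and the difference was -0.03 (95% interval -0.43 to 0.37, limma adjusted p = 0.933). A second probe set, 1451519_at, gave -0.05 (95% interval -0.44 to 0.34, adjusted p = 0.877 by limma). Both intervals leave out a change of 1 log2 unit in either direction. The remaining Rnf2 probe sets were dim: 1448042_s_at read 4.41 to 4.89 in knockout and 4.35 to 4.80 in wildtype cells, and 1448041_at and 1448043_x_at had means below the 25th percentile of all probe sets. Their differences were 0.11, -0.24 and -0.11, with limma adjusted p of 0.775, 0.465 and 0.790.

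Among the PCGF genes, Bmi1 read higher and Pcgf1 lower on every knockout array, and neither passed the test. Bmi1 encodes PCGF4, the PCGF protein of canonical PRC1. Its probe set 1417493_at read 10.86, 10.93, 11.03 and 11.05 on KO1 to KO4 and 10.67, 10.38, 10.63, 10.41 and 10.57 on WT1 to WT5. The lowest knockout array, KO1, lay above the highest wildtype array, WT1, which is its partner in batch 1. The means were 10.97 ± 0.09 (SD, n = 4) in knockout and 10.53 ± 0.13 (n = 5) in wildtype cells, with a fitted difference of 0.45 (95% interval 0.07 to 0.83, limma adjusted p = 0.122). It was 0.19 within batch 1 and 0.62 within batch 2.

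The second Bmi1 probe set, 1448733_at, read 9.69, 9.62, 10.25 and 10.20 on KO1 to KO4 and 9.54, 8.95, 9.39, 9.11 and 9.28 on WT1 to WT5. Here too all knockout arrays lay above all wildtype arrays, with KO3 and KO4 well above KO1 and KO2. The difference was 0.70 (95% interval 0.10 to 1.30, limma adjusted p = 0.128). It was 0.15 within batch 1 and 1.07 within batch 2. Without the batch 1 pair's WT1 or KO1 the fit rests on batch 2 and gave 1.07 (limma adjusted p = 0.0476). With each array scaled to one spread, the differences of the 2 Bmi1 probe sets were 0.04 (1417493_at, adjusted p = 0.903 by limma) and 0.41 (1448733_at, adjusted p = 0.231 by limma).

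Pcgf1 encodes the PCGF protein of the variant complex that holds BCOR and the CpG-binding protein KDM2B. Its probe set 1427956_at read 8.03, 7.68, 7.72 and 7.65 on KO1 to KO4 and 8.33, 8.67, 8.33, 8.74 and 8.46 on WT1 to WT5. All knockout arrays lay below all wildtype arrays, and KO1 lay nearest to them. The means were 7.77 ± 0.18 (SD, n = 4) in knockout and 8.50 ± 0.19 (n = 5) in wildtype cells, a difference of -0.71 (95% interval -1.17 to -0.25, limma adjusted p = 0.0685). It was -0.30 in batch 1 and -0.98 in batch 2. Pcgf1 passed the test when arrays were quantile normalized again (-0.94, limma adjusted p = 0.0473) or scaled to one spread (-0.89, limma adjusted p = 0.0423), and also without WT1 or KO1 (-0.98, limma adjusted p = 0.0309). Without WT2 the difference was -0.30 (limma adjusted p = 0.842).

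Pcgf5 encodes the PCGF protein of a variant complex that can hold AUTS2. The probe set 1434666_at read 10.10, 9.55, 10.02 and 9.72 on KO1 to KO4 and 9.17, 9.69, 9.56, 9.08 and 9.69 on WT1 to WT5, and the difference was 0.41 (limma adjusted p = 0.335). The probe set 1429564_at gave 0.21 (limma adjusted p = 0.597), with 8.55 to 9.34 in knockout and 8.71 to 9.02 in wildtype cells. On both, the groups overlapped. The probe set 1453636_at pointed the other way: it read 8.20, 8.88, 8.13 and 8.20 on KO1 to KO4 and 8.91, 9.01, 9.32, 8.67 and 8.70 on WT1 to WT5. KO2 alone reached into the wildtype range there, and the difference was -0.65 (95% interval -1.27 to -0.02, limma adjusted p = 0.166). Within batches 1 and 2 the differences were 0.93 and 0.07, 0.43 and 0.07, and -0.71 and -0.60 for the 3 probe sets in that order. The sources used here do not say which transcripts of Pcgf5 each probe set reads.

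**Figure D2:**
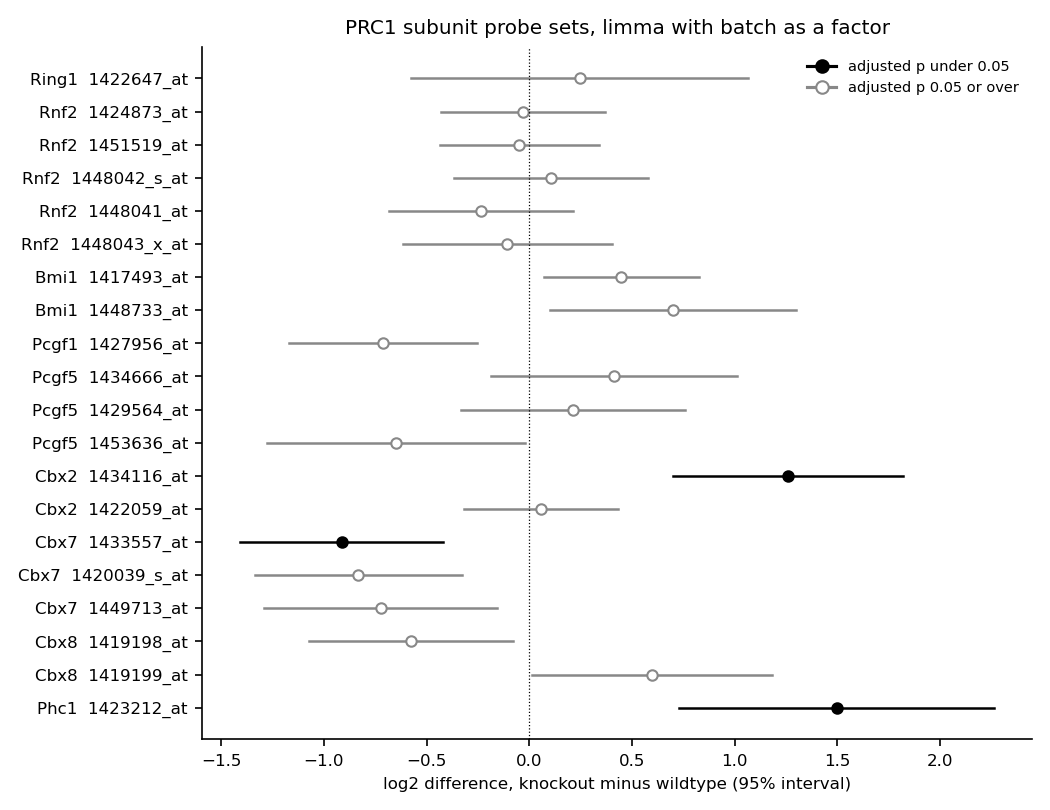
Fitted log2 difference (knockout minus wildtype, horizontal axis) of the 20 PRC1 subunit probe sets, with 95% intervals from limma; filled black points have an adjusted p under 0.05. Phc1 (1.50), Cbx2 1434116_at (1.26) and Cbx7 1433557_at (-0.91) are the 3 filled points, and the probe sets of Pcgf5 and of Cbx8 fall on both sides of 0.

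Cbx2 and Cbx7 were called in opposite directions. Cbx2 encodes a CBX protein that compacts nucleosomes in mouse PRC1 and is known for its skeletal and gonadal knockout phenotypes. Its probe set 1434116_at read 7.74, 7.50, 8.11 and 8.08 on KO1 to KO4 and 6.79, 6.43, 6.46, 6.93 and 6.53 on WT1 to WT5. Every knockout array lay above every wildtype array, with a gap between KO2 and WT4. The means were 7.86 ± 0.29 (SD, n = 4) in knockout and 6.63 ± 0.22 (n = 5) in wildtype cells. Cbx2 was higher by 1.26 (SE 0.25, 95% interval 0.70 to 1.82, limma adjusted p = 0.0256), which is 2.40-fold. The difference was 0.95 in batch 1 and 1.47 in batch 2. Leaving out single arrays gave 0.95 to 1.47, and the call was lost without WT2, KO3 or KO4 (limma adjusted p of 0.0172 to 0.299 over the 9 fits). The other Cbx2 probe set, 1422059_at, was dim, with a mean below the 25th percentile of all probe sets, and differed by 0.06 (limma adjusted p = 0.849).

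Cbx7 encodes the CBX protein that prevails in mouse embryonic stem cells and blood stem cells. Its probe set 1433557_at read 7.65, 8.02, 7.95 and 8.10 on KO1 to KO4 and 9.13, 8.56, 9.0, 8.88 and 8.77 on WT1 to WT5. All knockout arrays lay below all wildtype arrays, and the batch 1 pair, KO1 and WT1, held the lowest and the highest value. The means were 7.93 ± 0.19 (SD, n = 4) in knockout and 8.87 ± 0.22 (n = 5) in wildtype cells. Cbx7 fell by 0.91 on the log2 scale (SE 0.22, 95% interval -1.41 to -0.42, limma adjusted p = 0.0455), which is 1.88-fold lower. The difference was -1.48 in batch 1 and -0.54 in batch 2. The call was kept in 1 of the 9 fits that left out an array, the fit without WT2 (-1.48), and the limma adjusted p ran from 0.0245 to 0.112. Without KO1 or WT1 the difference was -0.54.

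Both other Cbx7 probe sets also read lower on every knockout array, without passing the test. The probe set 1420039_s_at read 6.39, 6.01, 6.70 and 6.39 on KO1 to KO4 and 7.20, 7.21, 7.17, 7.13 and 7.50 on WT1 to WT5, a difference of -0.83 (95% interval -1.34 to -0.33, limma adjusted p = 0.0592). It differed by -0.81 in batch 1 and -0.85 in batch 2, nearly the same in both. The probe set 1449713_at read 6.18, 5.97, 6.44 and 6.77 on KO1 to KO4 and 7.26, 6.88, 6.98, 7.18 and 7.18 on WT1 to WT5, a difference of -0.72 (limma adjusted p = 0.105). Cbx7 was thus lower on 3 of 3 probe sets, by 0.72 to 0.91 on the log2 scale, with 1 of the 3 past the test. The 3 probe sets share the arrays and the gene, and are not separate evidence.

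Cbx8 encodes a CBX protein known as a repressor of the Ink4a/Arf locus in fibroblasts, and its 2 probe sets disagreed. The probe set 1419198_at read 6.29, 6.56, 5.81 and 6.19 on KO1 to KO4 and 6.84, 6.78, 6.725, 6.95 and 6.76 on WT1 to WT5, all knockout arrays below all wildtype arrays. Its difference was -0.58 (95% interval -1.07 to -0.08, limma adjusted p = 0.131), and it was -0.54 within batch 1 and -0.60 within batch 2. The probe set 1419199_at read 5.58, 6.29, 5.63 and 5.95 on KO1 to KO4 and 5.55, 4.98, 5.16, 5.25 and 5.31 on WT1 to WT5, all knockout arrays above all wildtype arrays. Its difference was 0.60 (95% interval 0.01 to 1.18, limma adjusted p = 0.168), and it was 0.03 within batch 1 and 0.98 within batch 2. Neither passed the test, and no direction is given for Cbx8.

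Phc1 encodes polyhomeotic homolog 1, the partner that links canonical PRC1 complexes on chromatin through its SAM domain. Its probe set 1423212_at read 9.68, 9.105, 9.81 and 10.44 on KO1 to KO4 and 8.38, 8.16, 8.35, 8.46 and 8.06 on WT1 to WT5. Every knockout array lay above every wildtype array, and the knockout arrays were spread more widely. The means were 9.76 ± 0.55 (SD, n = 4) in knockout and 8.28 ± 0.17 (n = 5) in wildtype cells. Phc1 was higher by 1.50 (SE 0.34, 95% interval 0.73 to 2.26, limma adjusted p = 0.0393), which is 2.82-fold. The difference was 1.30 in batch 1 and 1.63 in batch 2. It lay between 1.30 and 1.68 in all 9 fits without 1 array, but the call was kept only without KO2 or KO4, with limma adjusted p of 0.0133 to 0.336.

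**Figure D3:**
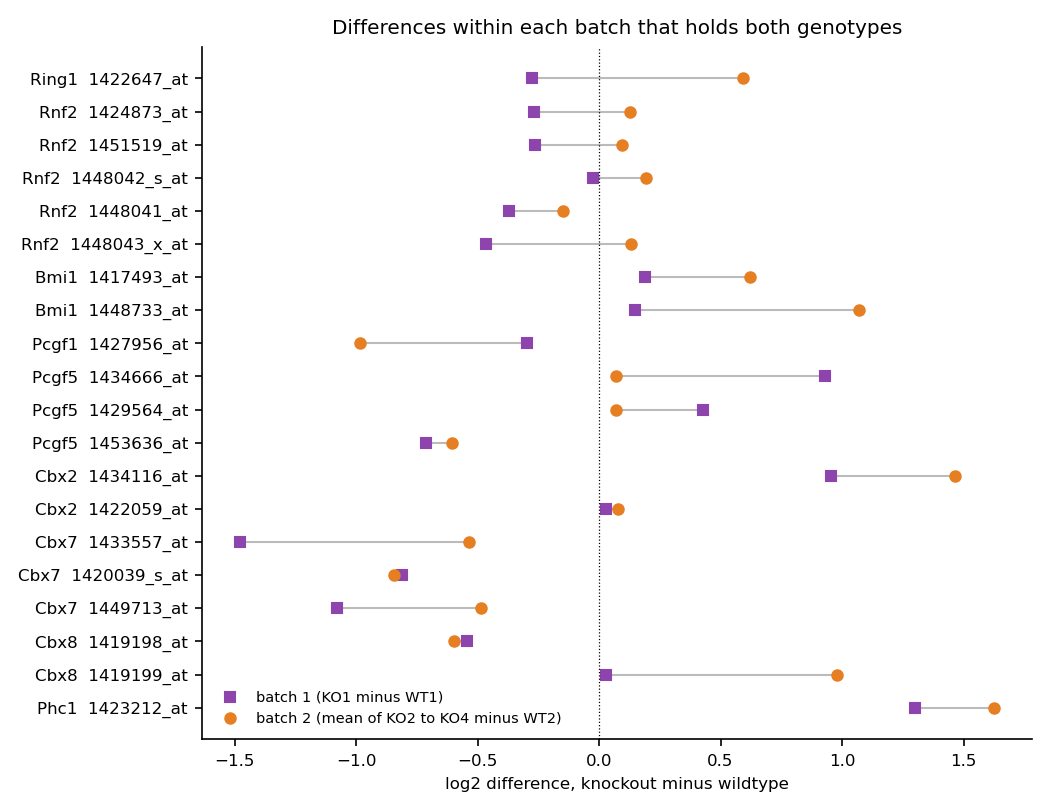
Log2 difference (knockout minus wildtype, horizontal axis) of each PRC1 subunit probe set within batch 1 (KO1 minus WT1, squares) and batch 2 (mean of KO2 to KO4 minus WT2, circles), joined by a grey line. The sign is shared by both batches on 15 of 20 probe sets; Cbx2 1434116_at (0.95 and 1.47) and Phc1 (1.30 and 1.63) lie to the right in both batches, all 3 Cbx7 probe sets to the left.

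The differences within batch 1, which is 1 array against 1, and within batch 2, which is 3 arrays against 1, had the same sign on 15 of the 20 probe sets (75%, against 64.1% of all probe sets). The 5 with opposite signs were Ring1 and 4 of the Rnf2 probe sets. The differences of Cbx2 and Phc1 were larger in batch 2 and that of Cbx7 1433557_at in batch 1. The double-positive thymocyte markers had a median difference of 1.96 within batch 1 and 0.80 within batch 2, and the macrophage and dendritic cell markers of 1.80 and 0.39. In the same order, the medians were 2.08 and 1.21 for cell cycle genes, 1.58 and 0.65 for B cell markers and 2.72 and -0.30 for neutrophil markers. They were -0.72 and -0.26 for iNKT and T cell markers and -0.02 and 0.05 for thymic epithelial markers. Single markers varied: the called macrophage marker Csf1r differed by 3.18 in batch 1 and 4.64 in batch 2. Cd68 and Lyz2, called in the same list, had the larger difference in batch 1. The part of such cells in the subunit differences was not tested.

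Other PRC1 genes, meaning partners and paralogs of the 9, were called in 1 direction. Of those listed, 26 had a probe set annotated to them alone. Using the probe set of highest mean of each gene, 4 of 26 were called higher and 0 lower in knockout cells, where 4.98% and 2.4% of 18193 genes were. At an unadjusted limma p under 0.05, 11 were higher and 0 lower, where 28.2% of all probe sets lay under it in either direction. The median difference was 0.26 (0.14 in batch 1 and 0.34 in batch 2), beside 0.04 over all genes, with 19 positive and 7 negative. Over the 22518 probe sets with a mean above the 50th percentile, the median difference was 0.14. Of the 26 genes, 0 had a mean under the 25th percentile.

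Scmh1, a SAM and MBT domain protein that associates with the PHC proteins, had the largest difference of the list on the probe set of highest mean of each gene. It read 8.93, 8.39, 9.17 and 9.72 on KO1 to KO4 and 7.10, 6.73, 6.76, 7.04 and 7.02 on WT1 to WT5, with no overlap. It was higher by 2.16 (SE 0.34, limma adjusted p = 0.0138), and a second probe set, 1439554_at, by 1.45 (limma adjusted p = 0.00697), while a further one, 1441573_at, differed by -0.35 (limma adjusted p = 0.668). Without WT2 the call on the probe set of highest mean was lost (1.83 to 2.37 over the 9 fits, limma adjusted p up to 0.132).

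Auts2, which joins PCGF5 complexes and is known for its role in neural development, read 7.23, 6.80, 6.93 and 6.65 on KO1 to KO4 and 5.04, 5.75, 5.47, 5.09 and 5.55 on WT1 to WT5. It was higher by 1.50 (limma adjusted p = 0.0196), and its probe set 1457139_at by 3.36 (limma adjusted p = 0.0121). On 1457139_at the knockout arrays read 6.31 to 7.95 and the wildtype arrays 3.38 to 4.56, with a wildtype mean of 3.94, under the 25th percentile of 4.54, so the size of that difference is uncertain. Its 3 other probe sets were not called (0.85, 0.05 and -0.11). Both Auts2 calls were kept in all 9 fits without 1 array. Pcgf3, the close paralog of Pcgf5, was higher by 1.04 (limma adjusted p = 0.0362) on the probe set of highest mean and differed by -0.37 and -0.43 on its other 2, which were not called. Tfdp1, the dimerisation partner of E2F proteins, was higher by 0.62 (limma adjusted p = 0.0488), and by 0.12 with each array scaled to one spread (limma adjusted p = 0.743). Without single arrays, the Pcgf3 call was kept only without WT1, KO1 or KO2 (0.76 to 1.23), and the Tfdp1 call in 0 of 9 fits (0.55 to 0.72, limma adjusted p of 0.0635 to 0.203).

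Over all 66 probe sets of these genes, 9 were called higher and 0 lower (against 3.73% and 2.67% of all probe sets), in 7 genes. The additional ones, named after their values were seen, were Skp1 1423149_at (0.99, limma adjusted p = 0.0255), E2f6 1437914_at (1.49, limma adjusted p = 0.0136) and Mga 1442356_at (1.33, limma adjusted p = 0.0340). E2F6 and MGA are the DNA-binding proteins of the PCGF6 complex, and SKP1 joins the KDM2B complex. Their probe sets of highest mean were not called, and the calls above were kept in 6, 8 and 4 of the 9 fits without 1 array for Skp1, E2f6 and Mga, each lost without WT2. Mga 1422646_at and 1431232_a_at pointed the other way, at -0.75 (limma adjusted p = 0.119) and -0.34 (limma adjusted p = 0.451), neither called, with all knockout arrays below all wildtype arrays on 1422646_at. Pcgf2, the paralog of Bmi1, differed by -0.40 (limma adjusted p = 0.418), the CBX paralog Cbx6 by 0.30 (adjusted p = 0.228 by limma) and the PHC paralog Phc2 by -0.02 (adjusted p = 0.964 by limma). For Phc2 the knockout arrays read 9.16, 8.77, 9.27 and 9.07 and the wildtype arrays 9.10, 9.11, 9.09, 9.42 and 8.92, and the groups overlapped. Whether Phc1 and Phc2 differ in their response was not tested.

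**Figure D4:**
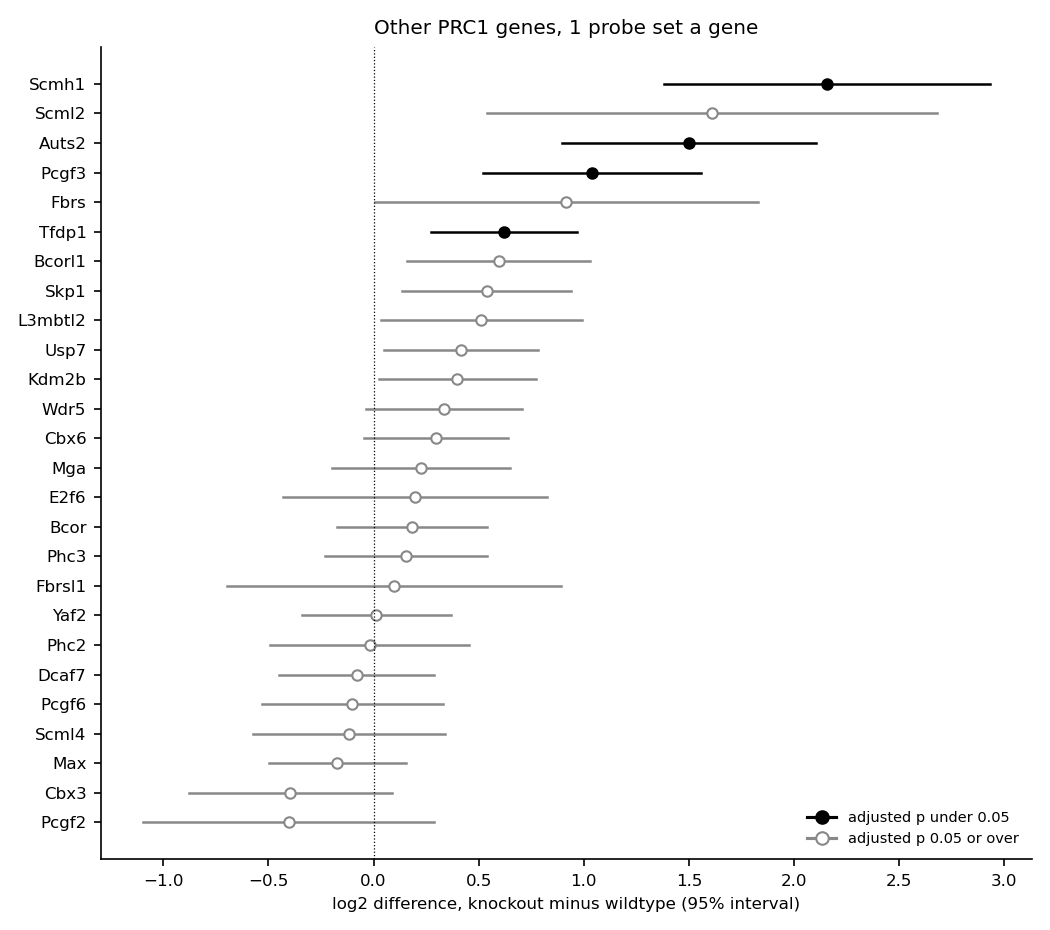
Fitted log2 difference (knockout minus wildtype, horizontal axis) of the 26 other PRC1 genes, 1 probe set a gene, with 95% intervals from limma; filled black points have an adjusted p under 0.05. Scmh1 (2.16), Auts2 (1.50), Pcgf3 (1.04) and Tfdp1 (0.62) are the filled points, and 7 genes lie left of 0.

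Among 10 H2A deubiquitinases and partners, which act to remove ubiquitin from H2A, 0 were called by limma in either direction. Over all genes 7.38% of 18193 were called, so 0 of 10 is near that share. At an unadjusted limma p under 0.05 there was 1 (Usp22, 0.48, named after its value was seen), where 28.2% of all probe sets lay under it. The median difference of the list was 0.39, beside 0.04 over all genes, with 8 positive and 2 negative. With each array scaled to one spread, this median was 0.07.

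Of 7 genes known from mouse work as PRC1 targets, 2 were called higher and 0 lower, where 4.98% and 2.4% of 18193 genes were. They are Cdkn2a, Cdkn2b, Cdkn2c, Cdkn1a, Cdkn1c, Ebf1 and Pax5, and Ebf1 and Pax5 are also among the B cell markers above. Their median difference was -0.05, which is the value of Ebf1. Ebf1 differed by 1.32 in batch 1 and -0.96 in batch 2. Cdkn2c, the cell cycle inhibitor p18, read 10.49, 9.91, 10.52 and 10.21 on KO1 to KO4 and 8.60, 8.89, 8.65, 8.88 and 8.85 on WT1 to WT5. It was higher by 1.55 (limma adjusted p = 0.00987, called in all 9 fits without 1 array). On these arrays 19 of 23 cell cycle genes were also called higher, and all 23 had a positive difference. Cdkn1c, the inhibitor p57, was higher by 1.09 (limma adjusted p = 0.0296), and lost its call without WT2, WT4, WT5, KO3 or KO4 (0.78 to 1.29 over the 9 fits). The wildtype mean of Cdkn1c was 4.70, near the 25th percentile of 4.54, so the size of that difference is uncertain. Cdkn2a holds the Ink4a and Arf products and is the best known target of BMI1 and of CBX7 in the mouse. It was picked from the list after its values were seen. It read 4.86, 4.89, 5.08 and 4.94 on KO1 to KO4 and 5.69, 5.37, 5.29, 5.57 and 5.58 on WT1 to WT5, lower on all knockout arrays, with a difference of -0.58 (limma adjusted p = 0.0818). Cdkn2a was also dim, with its mean at the 37.2th percentile of all probe sets.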

How the data were processed

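Each array has 1 deposited value per probe set on the log2 scale, which the authors computed with RMA (version not stated), per the submitters' processing notes. The sources used here do not say whether batches were adjusted upstream. Genotype, replicate number and batch came from the sample titles. Of 45101 probe sets, 64 controls were left out, and the array's annotation table named 34945 by 1 gene. All 9 member genes matched the reference gene table.

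All 45037 other probe sets were fitted without a filter on 9 arrays with limma 3.58.1 in R 4.3.3 (lmFit and eBayes, genotype and 3 batches as fixed factors, two-sided, Benjamini-Hochberg threshold 0.05). The fit left 5 residual degrees of freedom, with 3.57 from the prior. Errors are the SE or 95% interval of the fitted difference, or the SD between arrays. Lists used the probe set of highest mean of each gene and are described by counts and medians. The fit was tested on simulated data with independent noise on each array and random batch shifts. Such data do not hold the nearly opposite deviations of KO1 and WT1 given below, so that test does not cover them. Arrays give no read depth, and their number limits precision. Duplicate arrays were looked for and not found: differences between 2 arrays had an SD of at least 0.39 among knockout and 0.30 among wildtype arrays.

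The members and lists were chosen with earlier results of these data known. Named are all members, Kdm6a, up to 6 called genes of smallest p of the lists of PRC1 partners, deubiquitinases and targets, and Pcgf2, Cbx6 and Phc2 whatever their result. The targets are also listed in full. Of the called cell cycle and marker genes, which are given as counts, those of the iNKT list are named. Csf1r, Cd68 and Lyz2 were named after their values were seen, and Arpp21 and Ptcra because an array was flagged. The alternatives changed the batch term, filters, scaling, probe set choice, eBayes settings, array weights, the threshold or the arrays and batches used, or took the replicate number as a block. Sequences are RefSeq's, GRCm38.p6.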

Additional observations from a re-analysis of the deposited data

Results flagged for a closer look

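A lone array stood apart from the rest of its group, by Dixon's test at the 95% level, for 6 of 108 groups of arrays examined, and chance gives about 1 in 20. Among PRC1 subunits, Rnf2 1451519_at read 10.28 (log2) on KO3 and 10.01 to 10.05 on the other knockout arrays. Pcgf5 1453636_at read 8.88 on KO2 and 8.13 to 8.20 on the others, so the lower level of that probe set was seen on 3 of 4 knockout arrays. Cbx7 1420039_s_at read 7.50 on WT5 and 7.13 to 7.21 on the other wildtype arrays. Outside the subunits, KO2 was the lone array each time: Kdm6a 1427235_at read 9.62 there and 10.01 to 10.07 elsewhere in the group, and the thymocyte genes Arpp21 (10.46 against 11.16 to 11.25) and Ptcra (10.2 against 10.88 to 11.0) were lower there.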

How the results depend on the processing

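The main limits are the batches, with 2 wildtype arrays sharing a batch with knockout arrays, and the wider spread of values on knockout arrays. Of the subunit calls, 2 higher and 1 lower in the reported fit, 0 and 0 remained with array weights, without batch 3 or in batch 2 alone, while no batch term gave 5 and 6 and batch as a random block 6 and 7. The 1 lower call became 2 with a filter at the 50th percentile and 3 with new quantile normalization, scaling to one spread or a threshold of 0.1. In these fits Cbx2 1434116_at, Cbx7 1433557_at and Phc1 1423212_at kept their direction, each called in 10 of 13. Cbx2 1422059_at was called in 0 of 10, Cbx7 1420039_s_at in 7 of 12 and Cbx7 1449713_at in 3 of 12. Over all probe sets (1679 higher, 1203 lower) the counts were 8769 and 8994 without batch, 14693 and 15040 with the random block, 385 and 138 with weights, 285 and 100 without batch 3, 0 and 0 in batch 2 alone, 3736 and 3541 at 0.1, and 1090 and 578 with 1 probe set a gene; scaling gave 2268 lower. The other PRC1 genes (4 higher, 0 lower) gave 13 and 1 without batch, 15 and 4 with the random block, and 1, 0, 0 and 7 higher with weights, without batch 3, in batch 2 alone and at 0.1. With the replicate number as a block in place of batch, 3 subunit probe sets were higher and 5 lower, 5525 and 5333 of all probe sets, and 8 other PRC1 genes higher. In that fit the log2 difference of Rnf2 1424873_at was 7.43e-05, and it was not called. Same-numbered arrays deviated with r of -0.92, 0.07, -0.01 and 0.11, so the numbers do not pair them. The -0.92 is of KO1 and WT1, the only arrays of batch 1, whose deviations from their group means were thus nearly opposite; whether batches were adjusted before deposit is not known, and its part in the batch term and the within-batch differences was not tested. Medians moved to 1.08 for targets (50th percentile filter), 0.17 and 0.075 for deubiquitinases and 1.41 and 1.28 for cell cycle genes (quantile normalization and scaling), and 1.21 for cell cycle genes in batch 2 alone. Without single arrays the subunit calls were 0 to 2 higher and 0 to 1 lower, all probe sets 708 to 2520 and 340 to 3070, other PRC1 genes 2 to 4 and 0 to 0, and the medians 0.13 to 0.56 (deubiquitinases), -0.10 to 0.78 (targets) and 1.21 to 2.08 (cell cycle). Signs turned only for differences that had not passed. Without single arrays, Ring1 ran from -0.28 to 0.59, Rnf2 from -0.27 to 0.13 (1424873_at), -0.26 to 0.094 (1451519_at), -0.46 to 0.13 (1448043_x_at) and -0.023 to 0.19 (1448042_s_at), Pcgf2 from -1.29 to 0.19, Phc2 from -0.081 to 0.061, and Kdm6a from -0.066 to 0.076, -0.86 to 0.15 and -0.53 to 0.23 on 3 probe sets. In batch 2 alone, the named Rnf2 probe sets but 1448042_s_at gave 0.13, 0.094 and 0.13 and Pcgf2 0.19. Quantile normalization and scaling gave 0.057 and 0.14 for Rnf2 1448043_x_at and -0.072 and -0.043 for Pcgf5 1429564_at, and scaling 0.0024 for Rnf2 1448041_at and -0.21 for Cbx6. With array weights, Phc2 and Kdm6a 1427235_at gave 0.010 each. The causes were not tested.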
